A study of Trametes pubescens and Hermanssonia centrifuga with 16 samples.

Results

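A set of 148 genes of the white-rot fungus Phlebia centrifuga took more reads on spruce than on wheat straw in every library, at 15 and at 25 °C. They are 1.07% of the 13785 gene models counted for this fungus, in a series that also holds 14451 models of Trametes pubescens. The members were chosen by measured values: the lowest CPM (a count relative to the library's total, scaled by trimmed means of M-values) of the 4 spruce libraries had to be at least 10, and at least 1.5 times the highest CPM of the 4 straw libraries. The excess on spruce is therefore a condition of entry and is given below as a description, with no test.

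The fungus was strain FBCC195, which GEO lists as Hermanssonia centrifuga, and all 8 libraries came from mycelium of this 1 strain. The 4 groups were straw at 15 °C, straw at 25 °C, spruce at 15 °C and spruce at 25 °C, each with 2 libraries from messenger RNA of 21-day cultures on 2 g of wheat straw or of sticks of Norway spruce. Separate cultures are not stated for replicate libraries, and p-values therefore measure only a spread that may be technical. Per the labels' protocols the liquid precultures of this strain were kept at 15 °C in all groups, and solid cultivation is described there at 25 °C alone, so the groups follow the sample titles and treatment labels.

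White-rot fungi degrade lignin together with cellulose and hemicellulose, by secreting peroxidases and other oxidases along with enzymes that hydrolyse polysaccharides. Spruce is a softwood whose main hemicellulose is galactoglucomannan and whose lignin is built largely of guaiacyl units. Wheat straw is a grass material rich in arabinoxylan, with hydroxycinnamic acids bound to its cell walls. P. centrifuga is known from fallen spruce trunks in boreal forests. The files name each gene only by a JGI identifier, with a scaffold and a model number, so no function is given for any member and the members could not be ordered by role.

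The members took 1.36% ± 0.17 (SD, n = 4) of all counts on straw and 4.89% ± 0.39 (SD, n = 4) on spruce. In the straw libraries this share was 1.15% and 1.47% at 15 °C, and 1.5% and 1.3% at 25 °C. In the spruce libraries it was 4.98% and 4.88% at 15 °C, and 5.31% and 4.38% at 25 °C. The median member stood at 34.9 and 49.5 CPM in the straw libraries at 15 °C, 48.8 and 40.3 at 25 °C, 157 and 164 in the spruce libraries at 15 °C, and 173 and 136 at 25 °C. Each spruce library thus held the median member well above each straw library, as the rule requires, and neither temperature stood apart from the other. Library totals lay between 9691925 and 12420388 counts, and the lowest count of any member in any library was 9.

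**Figure D1:**
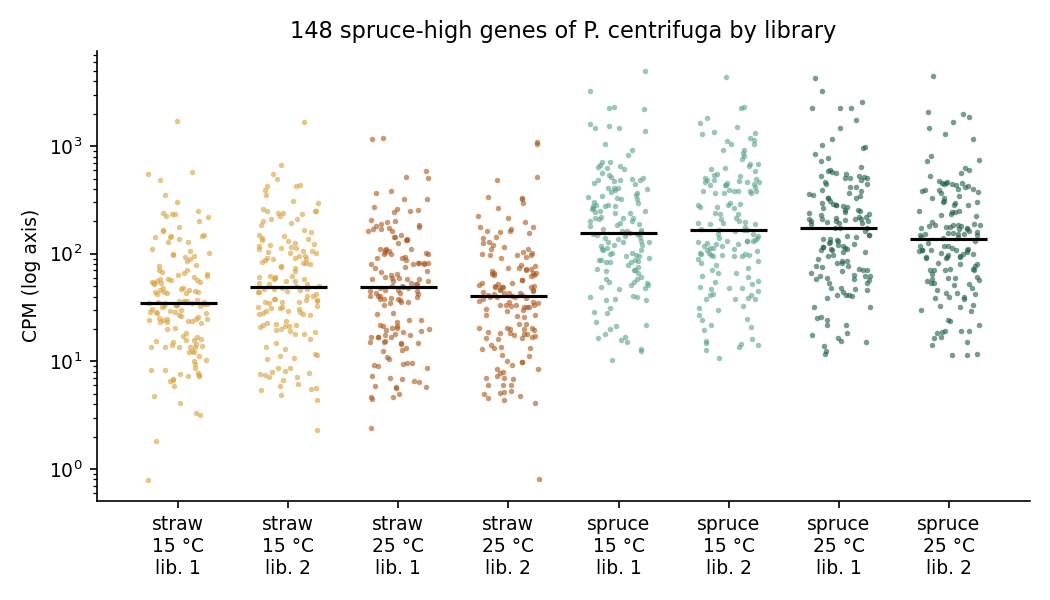
CPM of the 148 spruce-high genes in each of the 8 libraries of P. centrifuga (vertical log axis; 1 point per gene, bars for the median of the members). The medians lie between 34.9 and 49.5 CPM in the 4 straw libraries and between 136 and 173 CPM in the 4 spruce libraries.

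Most members were expressed on both substrates and differed in degree. The mean over the spruce libraries ranged from 11.7 to 4540 CPM with a median of 165 CPM, and the mean over the straw libraries from 3.55 to 1394 CPM with a median of 43.8 CPM. No member was silent on straw, where the least expressed one still had 158 counts over the 4 libraries. On spruce 52 members had a mean under 100 CPM, 84 lay from 100 to under 1000 CPM and 12 reached 1000 CPM. The 10 with the highest means held 34% to 42.9% of the members' reads in the spruce libraries. CPM is not corrected for gene length, so these figures order genes by reads and not by transcripts.

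The margin between the lowest spruce and the highest straw library was narrow for most of them. Its median was 1.87-fold and its highest value 6.97-fold. In all, 87 members lay from 1.5-fold to under 2-fold, 61 reached 2-fold, 15 reached 3-fold and 6 reached 5-fold. The last to enter was jgi|Phlcen1|3869|scaffold_1760.2, whose lowest spruce library had 74.3 CPM and whose highest straw library had 49.5 CPM. Next above it was jgi|Phlcen1|8915|scaffold_2754.2, with 14.3 against 9.51 CPM. Just outside lay jgi|Phlcen1|11011|scaffold_395.1, with 286 against 191 CPM, and jgi|Phlcen1|4607|scaffold_1976.8, with 777 against 518 CPM. These 4 lie on a continuum: 1177 gene models had a lowest spruce CPM of at least 10 that was above their highest straw CPM. The mirrored rule found 122 genes high on straw. The member count was 61 with a 2-fold margin, 397 with a 1.2-fold margin and 243 without the second spruce library at 25 °C.

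Gene jgi|Phlcen1|6304|scaffold_2409.5 had the widest margin. Its straw libraries had 13.6 and 8.64 CPM at 15 °C and 10.6 and 9.84 CPM at 25 °C, and its spruce libraries had 136 and 94.9 CPM at 15 °C and 218 and 154 CPM at 25 °C. All 4 straw libraries were thus close together, while the highest spruce library was more than 2-fold above the lowest and the spruce pairs of the 2 temperatures did not overlap. The log2 fold change of spruce over straw was 3.37 ± 0.29 (SE) at 15 °C and 4.18 ± 0.30 at 25 °C.

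Next came jgi|Phlcen1|1531|scaffold_1314.5, with a margin of 5.91-fold. It had 10.3 and 10.5 CPM on straw at 15 °C and 6.6 and 9.28 CPM at 25 °C, against 86.9 and 62.2 CPM on spruce at 15 °C and 105 and 81.1 CPM at 25 °C. The spruce libraries of the 2 temperatures overlapped for this gene.

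The member with the most reads was jgi|Phlcen1|779|scaffold_1177.6, which took 9.18% of all member reads in the spruce libraries on average. It had 1700 and 1658 CPM on straw at 15 °C, 1166 and 1053 CPM on straw at 25 °C, 4969 and 4372 CPM on spruce at 15 °C, and 4338 and 4480 CPM on spruce at 25 °C. Its straw libraries at 25 °C were below those at 15 °C, and its spruce libraries overlapped between temperatures. The fall on straw was -0.59 ± 0.15 on the log2 scale (edgeR quasi-likelihood test, adjusted p = 0.0419). Its difference from the effect on spruce was not called (interaction 0.51 ± 0.21, edgeR adjusted p = 0.258).

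Second by reads was jgi|Phlcen1|8659|scaffold_2719.1. It had 573 and 671 CPM on straw at 15 °C, 364 and 320 CPM on straw at 25 °C, 3230 and 1837 CPM on spruce at 15 °C, and 2590 and 1680 CPM on spruce at 25 °C. The first spruce library was the higher one at both temperatures. Its straw libraries did not overlap between temperatures either, but the log2 fold change of -0.86 ± 0.30 was not called (edgeR adjusted p = 0.111).

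**Figure D2:**
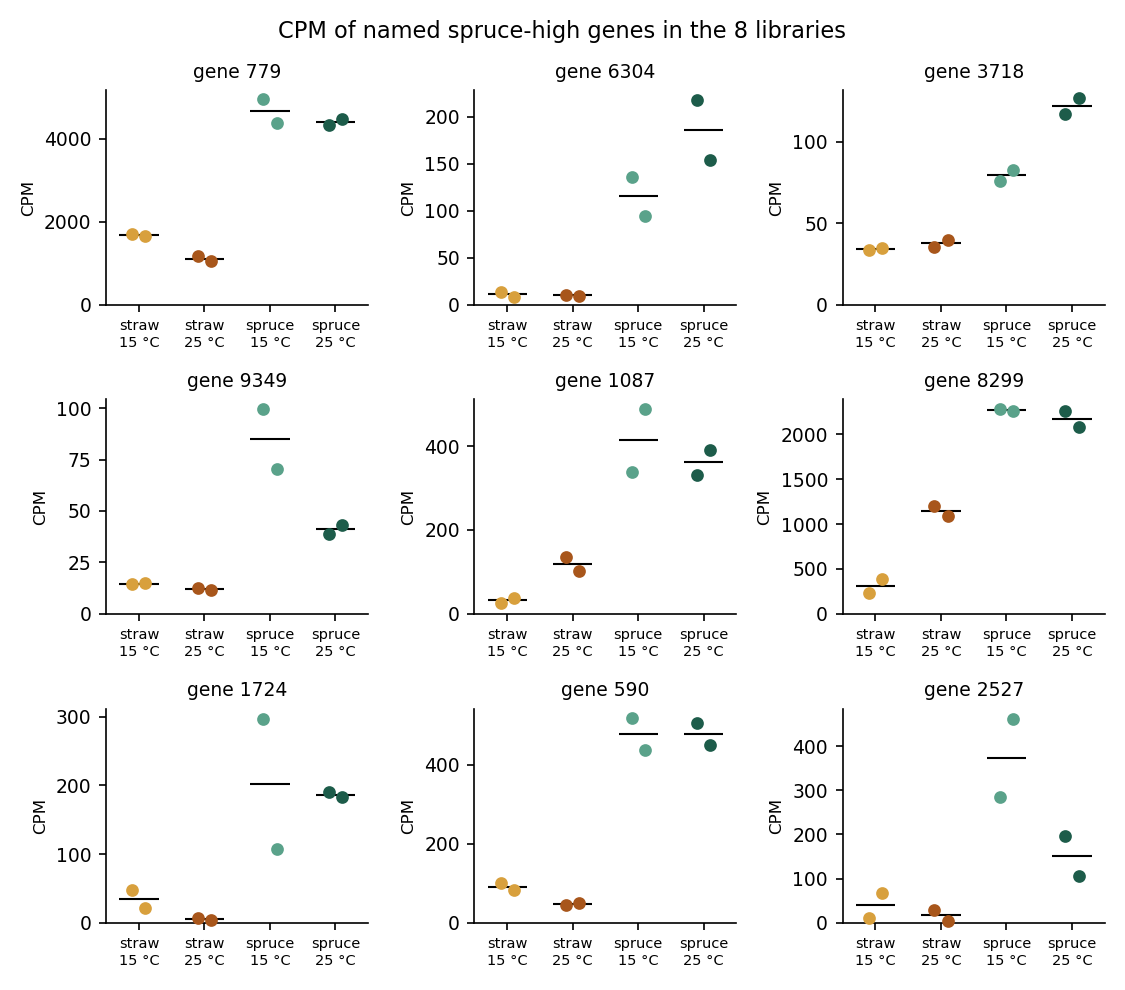
CPM of 9 members in the 8 libraries (vertical linear axes from 0, 1 point per library, bars for the mean of 2 libraries). Genes 1087 and 8299 rise from straw at 15 °C to straw at 25 °C while their spruce libraries overlap or lie close, and gene 2527 differs between libraries of the same group.

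The median log2 fold change of spruce over straw was 1.83 at 15 °C and 1.67 at 25 °C, against 0.001 and 0.02 over all 11658 tested genes, all 148 members among them. The range was 0.74 to 5.21 at 15 °C and 0.81 to 5.09 at 25 °C. The excess was larger at 15 °C in 86 members and at 25 °C in 62, and in 84 (56.8%) the 2 values lay within 0.5 log2 units of each other, as they did in 71.5% of all tested genes. The median size of the difference between the 2 values was 0.44 log2 units in members and 0.29 in all tested genes. These values come from the contrast that chose the members.

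Whether temperature altered the excess is the interaction, which the rule did not set, although a gene whose excess vanished at 1 temperature could not enter. No member was called by edgeR's quasi-likelihood test, in which 0.0858% of all tested genes were called; the lowest adjusted p was 0.0806. At an unadjusted p below 0.05 there were 29 members (19.6%), 12 with a larger excess at 25 °C and 17 with a larger one at 15 °C, beside a background of 18.1% of the tested genes. DESeq2 called 11 members (7.43%; 2 with a larger excess at 25 °C, 9 with a larger one at 15 °C), beside 3.55% of all tested genes. With either spruce library at 15 °C left out, which leaves 1 library in that group, edgeR called some members. Shares of all tested genes are not given for these fits.

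On spruce, 3 members (2.03%) differed between 25 and 15 °C, 1 higher and 2 lower. Of all tested genes 9.64% were called in this contrast, 5.77% higher and 3.87% lower. The rule bounds every spruce library from below, and its part in this count was not tested. The median log2 fold change of members was -0.17, against 0 for all tested genes, with a range from -1.33 to 0.99. With the first or the second spruce library at 25 °C left out, the members' median was -0.32 or -0.04. Below 0 lay 92 members and above 0 lay 56. Both libraries at 25 °C were below both at 15 °C in 44 members (29.7%), with a background of 26.3%, and above both in 18 members (12.2%), with a background of 29%. With library totals in place of the scaling, the median was -0.01 for members and 0.16 for all tested genes. The split of calls became 3 higher and 1 lower, and the share of all tested genes called in this fit is not given.

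Gene jgi|Phlcen1|3718|scaffold_1714.14 was the 1 member that edgeR called higher at 25 °C on spruce. It had 76.1 and 82.6 CPM on spruce at 15 °C and 117 and 127 CPM at 25 °C, while its straw libraries lay at 33.8 and 34.9 CPM at 15 °C and 35.4 and 39.8 CPM at 25 °C. The rise on spruce was 0.62 ± 0.11 on the log2 scale (edgeR adjusted p = 0.0181), and the value on straw was 0.14 ± 0.11 (edgeR adjusted p = 0.477). The difference between these values was not called (interaction 0.48 ± 0.16, edgeR adjusted p = 0.185).

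Gene jgi|Phlcen1|9349|scaffold_2798.18 fell on spruce. It had 99.8 and 70.6 CPM at 15 °C and 38.9 and 43.1 CPM at 25 °C, a log2 fold change of -1.06 ± 0.17 (edgeR adjusted p = 0.0139). On straw it had 14.2 and 14.8 CPM at 15 °C and 12.4 and 11.4 CPM at 25 °C (-0.29 ± 0.19, edgeR adjusted p = 0.358). Its 4 straw libraries were thus all far below the lower spruce pair. The difference between the effects on spruce and on straw was not called (interaction -0.77 ± 0.25, edgeR adjusted p = 0.186).

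Gene jgi|Phlcen1|12637|scaffold_806.27 fell on both substrates by a like amount, and was the 1 member called on both. On spruce it went from 208 and 216 CPM at 15 °C to 137 and 156 CPM at 25 °C (-0.53 ± 0.12, edgeR adjusted p = 0.0333). On straw it went from 89.8 and 82.5 CPM to 57.7 and 62.4 CPM (-0.52 ± 0.12, edgeR adjusted p = 0.0315).

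None of these 3 calls on spruce held when only spruce libraries were fitted or when either spruce library at 25 °C was left out. edgeR then called 0 members, with 28, 26 and 17 at an unadjusted p below 0.05. The call of 12637 was also lost with library totals, with the replicate number as a block (adjusted p = 0.0523) and without any 1 of the 4 straw libraries. More members were called with either spruce library at 15 °C left out, which leaves 1 library in that group. RLE scaling gave 5 calls. Shares of all tested genes are not given for RLE scaling or for the fits with fewer libraries. DESeq2 gave 10 calls (2 higher and 8 lower, 6.76% of members), beside 12% of all tested genes.

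On straw, 11 members (7.43%) were higher and 10 (6.76%) were lower at 25 °C than at 15 °C. Over all tested genes 6.48% rose and 5.21% fell, 11.7% in all beside 14.2% of the members. Every straw library of a member is bounded from above by the rule, and the part of this bound in the count was not tested. The rises ranged from 0.39 to 1.91 and the falls from 0.52 to 2.67 in size on the log2 scale. The median over members was -0.06, against -0.01 for all tested genes. Without the first or the second straw library at 15 °C it was -0.21 or 0.18, and without those at 25 °C it was -0.18 or 0.02. Both libraries at 25 °C were above both at 15 °C in 24 members (16.2%), with a background of 30.7%, and below both in 39 (26.4%), with a background of 33%. Library totals in place of the scaling moved the median of all tested genes to 0.11 and that of members to 0.06. In that fit 13 members were called higher and 5 lower, and the share of all tested genes called is not given.

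Gene jgi|Phlcen1|1087|scaffold_1214.14 had the largest rise on straw among members. It had 26.7 and 36.8 CPM on straw at 15 °C and 136 and 102 CPM at 25 °C, a log2 fold change of 1.91 ± 0.25 (edgeR adjusted p = 0.00497). On spruce it had 340 and 488 CPM at 15 °C and 331 and 392 CPM at 25 °C. The straw pairs were apart and the spruce pairs overlapped, so the spruce excess was 3.70 ± 0.27 at 15 °C and 1.60 ± 0.25 at 25 °C. This change of the excess was -2.10 ± 0.35 and not called (edgeR adjusted p = 0.0852).

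Gene jgi|Phlcen1|8299|scaffold_2677.5 showed the same order of groups at a higher level of reads. It had 232 and 392 CPM on straw at 15 °C, 1196 and 1087 CPM on straw at 25 °C, 2286 and 2264 CPM on spruce at 15 °C, and 2262 and 2079 CPM on spruce at 25 °C. The rise on straw was 1.87 ± 0.24 (edgeR adjusted p = 0.00468), and the interaction was -1.94 ± 0.34 (edgeR adjusted p = 0.0889). The model numbered next to it, jgi|Phlcen1|8298|scaffold_2677.4, was also a member and was named after its values were seen. It went from 15.7 and 20.8 CPM on straw at 15 °C to 60.6 and 42.8 CPM at 25 °C (1.51 ± 0.24, edgeR adjusted p = 0.00897).

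Gene jgi|Phlcen1|1724|scaffold_1359.12 had the largest fall on straw among members. It had 47.8 and 21.7 CPM at 15 °C and 6.40 and 4.56 CPM at 25 °C, a log2 fold change of -2.67 ± 0.57 (edgeR adjusted p = 0.026). On spruce it had 298 and 107 CPM at 15 °C and 191 and 183 CPM at 25 °C. The libraries at 15 °C differed by more than 2-fold on both substrates, and on spruce they enclosed those at 25 °C. The interaction of 2.554 ± 0.745 was not called (edgeR adjusted p = 0.157).

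Gene jgi|Phlcen1|590|scaffold_1138.9 had the next largest fall among the members called on straw. It had 99.5 and 82.3 CPM on straw at 15 °C and 45.7 and 49.9 CPM at 25 °C (-0.92 ± 0.16, edgeR adjusted p = 0.0111). On spruce it had 518 and 437 CPM at 15 °C and 504 and 450 CPM at 25 °C, which overlap. The interaction of 0.92 ± 0.22 was not called (edgeR adjusted p = 0.118).

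Of the 21 members called on straw, the count dropped to 1 or 6 when the first or the second straw library at 15 °C was left out, and to 3 or 5 for those at 25 °C. Each of these fits leaves 1 library in a group. The share of all tested genes called in them is not given, so the drop cannot be read as particular to members. The call of 8299 held in each of the 15 alternatives tried. That of 1087 was lost without the first straw library at 15 °C, that of 590 without this library or either straw library at 25 °C, and that of 1724 without any of these or either spruce library at 25 °C. DESeq2 called 23 members (10 higher, 13 lower), 15.5% of them, beside 12.7% of all tested genes.

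**Figure D3:**
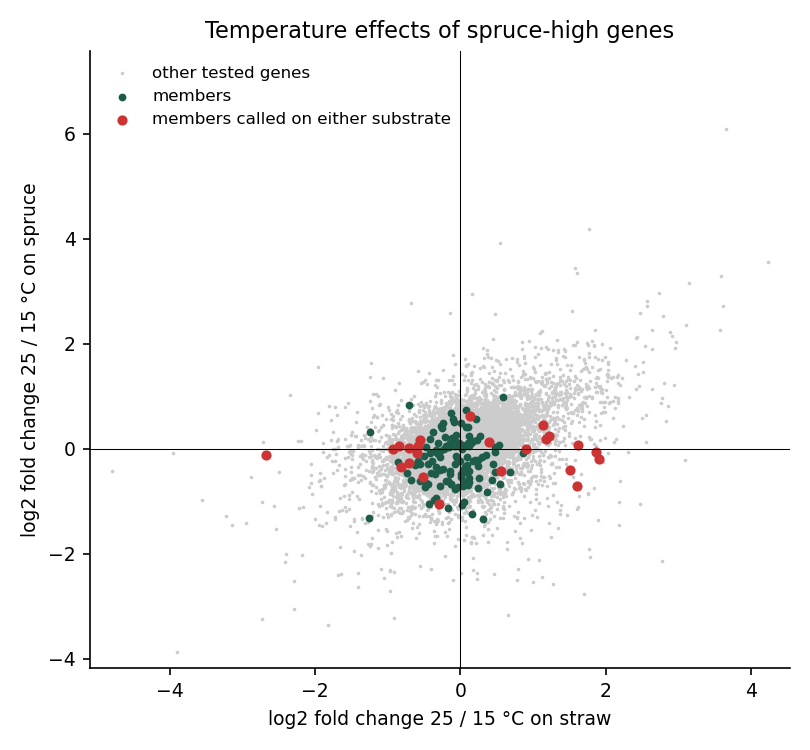
Log2 fold change of 25 over 15 °C on straw (horizontal) and on spruce (vertical) for 11658 tested genes; members are green, and the 23 called on either substrate are in red. The members lie between -1.33 and 0.99 on spruce and between -2.67 and 1.91 on straw.

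The direction of the temperature effects was mixed. Values were above 0 on both substrates in 26 members and below 0 on both in 51, and 41 were below 0 on spruce and above 0 on straw, with 30 the other way. In 125 members temperature was called on neither substrate. Of all tested genes 9.64% were called on spruce and 11.7% on straw. Shares of all tested genes are not given for the sign groups or for calls on neither substrate. Over both substrates together, the lowest ratio of mean CPM at 25 °C to 15 °C was 0.405, in jgi|Phlcen1|2527|scaffold_1512.12, followed by 0.463 in jgi|Phlcen1|2458|scaffold_1511.3. The highest ratios were 1.91 in jgi|Phlcen1|13556|scaffold_967.9 and 1.68 in jgi|Phlcen1|5850|scaffold_2287.5. Members have more CPM on spruce by the rule, so these ratios follow the spruce libraries more than the straw libraries. Leaving out 1 spruce library moved the ratio of 13556 to 1.195 (the first at 25 °C) and that of 5850 to 2.72 (the first at 15 °C). None of these 4 was called for temperature on either substrate (edgeR adjusted p between 0.118 and 0.767).

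Gene 2458 had 445.1 and 445.9 CPM on spruce at 15 °C and 212 and 142 CPM at 25 °C, with 18.4 and 57.7 CPM on straw at 15 °C and 58.3 and 35.6 CPM at 25 °C. Its spruce libraries did not overlap between temperatures, while its straw libraries did. Gene 5850 had 411 and 166 CPM on spruce at 15 °C and 579 and 457 CPM at 25 °C, with 27.9 and 32.0 CPM on straw at 15 °C and 16.8 and 19.7 CPM at 25 °C. Its pairs were apart on both substrates, in opposite directions. The interaction of 5850 was 1.55 ± 0.54 and was not called (edgeR adjusted p = 0.198).

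Replicate libraries differed more for the members than for the bulk of genes. The median size of the difference between the 2 libraries of a group, in log2 CPM with a prior count of 2, was 0.35 in members and 0.14 in all tested genes for straw at 15 °C. The same medians were 0.24 and 0.17 for straw at 25 °C, 0.38 and 0.27 for spruce at 15 °C, and 0.30 and 0.15 for spruce at 25 °C. The libraries were at least 2-fold apart for 16.9%, 11.5%, 12.8% and 5.41% of the members in these 4 groups in the same order, and for 1.74%, 2.32%, 5.99% and 1.12% of all tested genes. The median SE of the temperature effect on straw was 0.25 log2 units in members and 0.18 in all tested genes, and on spruce 0.23 and 0.18. Its part in the number of members called was not tested.

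The differences between replicates ran together across members. On straw at 15 °C the second library was at least 2-fold above the first in 24 members, and at 25 °C the first was at least 2-fold above the second in 17. Of these, 16 members were in both lists, 66.7% of the first and 94.1% of the second. Across the 148 members the difference of second minus first library on straw at 15 °C and that on straw at 25 °C had a Pearson r of -0.81 (Spearman -0.70), against a Pearson r of -0.32 over all 11658 tested genes. The 2 differences share no library, but each is the same pair of libraries for every gene, so this describes 4 libraries and carries no p.

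**Figure D4:**
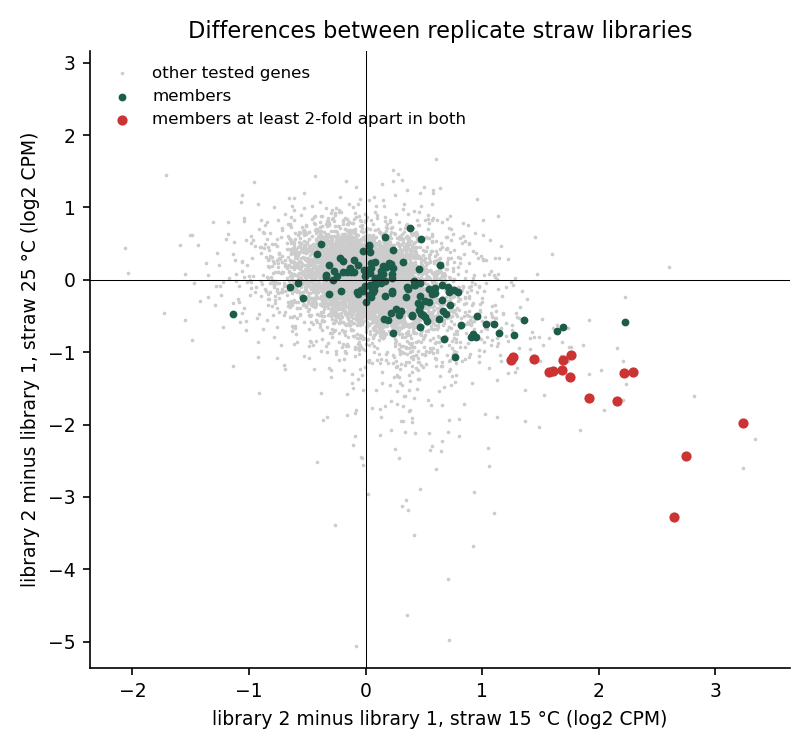
Difference between the second and the first library of straw at 15 °C (horizontal) and at 25 °C (vertical) in log2 CPM, for members (green) and other tested genes (grey). The 16 members in red had a higher second library at 15 °C and a higher first library at 25 °C, by at least 2-fold each.

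Most of these 16 members had the same order of libraries on spruce, which did not enter the lists. On spruce at 15 °C the second library was the lower one in 3 of them, with a median of 0.69 log2 units above the first. On spruce at 25 °C it was the lower one in 15 of them, with a median of -0.62. They summed to 0.0622% and 0.208% of counts on straw at 15 °C, 0.186% and 0.079% on straw at 25 °C, 0.726% and 1.08% on spruce at 15 °C, and 0.762% and 0.477% on spruce at 25 °C. Even so, each spruce library held a larger sum than each straw library, which follows from the rule. Of all tested genes 47 (0.403%) met both conditions on straw, and the members were 34% of these. Among the 31 others, 23 had a higher mean on spruce than on straw, 18 of them by at least 2-fold. Of the 31, 8 had a lowest spruce CPM under 10. The shares of all tested genes with such means are not given.

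Gene 2527 is 1 of these 16. It had 10.1 and 68.5 CPM on straw at 15 °C, 27.9 and 5.04 CPM on straw at 25 °C, 285 and 462 CPM on spruce at 15 °C, and 196 and 105 CPM on spruce at 25 °C. The libraries of a straw group were more than 5-fold apart, so the temperature effects had wide errors, -1.31 ± 0.91 on spruce and -1.26 ± 0.96 on straw (edgeR adjusted p = 0.376 and 0.431). Gene 13556, another of the 16, had 0.786 and 5.86 CPM on straw at 15 °C, 9.32 and 0.8 CPM on straw at 25 °C, 17.8 and 16.1 CPM on spruce at 15 °C, and 48.4 and 19.2 CPM on spruce at 25 °C. Over the 16 the median SE of the temperature effect on straw was 0.65 log2 units, and none of them was called for temperature on either substrate or for the interaction.

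Some members lay beside each other in the numbering of models along scaffolds, which the rule did not use. The 148 members were spread over 109 of 1994 scaffolds, and 26 scaffolds held more than 1. Of the 147 members with a numbered neighbour on their scaffold, 29 (19.7%) were next to another member. The set itself changes in size under other rules. This count was 49 of 214 members without the second straw library at 15 °C. It was 59 of 243 without the second spruce library at 25 °C. With a 2-fold margin it was 6 of 61, and with a 1.2-fold margin 109 of 397. A larger set leaves more members to be next to, and shares of other models are not given for these sets. For the set of 148, 245 (1.90%) of the 12871 other models with a numbered neighbour were next to a member. The 29 formed 13 runs of 2 and 1 run of 3. The files do not give coordinates, so the distance, strand and any overlap of neighbours are not known. Reads shared by overlapping models, or 1 gene split into 2 models, cannot be told apart from neighbouring genes here.

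The run of 3 lay on scaffold 2671. Its first member, jgi|Phlcen1|8270|scaffold_2671.22, had 555 and 551 CPM on straw at 15 °C, 518 and 489 CPM on straw at 25 °C, 1483 and 1109 CPM on spruce at 15 °C, and 1489 and 1305 CPM on spruce at 25 °C. The second, jgi|Phlcen1|8271|scaffold_2671.23, had 43.7 and 45.1 CPM, 43.1 and 40.7 CPM, 129 and 97.8 CPM, and 126 and 111 CPM in the same groups. The third, jgi|Phlcen1|8272|scaffold_2671.24, had 202 and 193 CPM, 184 and 160 CPM, 559 and 392 CPM, and 527 and 456 CPM. In all 3 the second spruce library was below the first at both temperatures. Over all members the median of second minus first library was -0.03 log2 units on spruce at 15 °C and -0.28 at 25 °C. None was called for temperature on either substrate (edgeR adjusted p between 0.542 and 0.888).

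In the 15 neighbouring pairs of members, the temperature effect had the same sign in 11 pairs (73.3%) on straw and in 12 pairs (80%) on spruce, whether called or not. Over the 10275 consecutive pairs with both models tested, the sign was the same in 57.6% on straw and in 58.1% on spruce. Across the 8 libraries the log2 CPM of neighbours had a Pearson r from 0.91 to 1.00 in these pairs, which the shared excess on spruce alone makes high. The 235 tested models that were next to a member without being one had a median log2 fold change of spruce over straw, averaged over both temperatures, of 0.20, against -0.003 in the 11275 other tested models outside the set. Of these neighbours 55 (23.4%) had all 4 spruce libraries above all 4 straw libraries, and 9.98% of the others did.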

How the data were processed

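Raw counts of reads were deposited by the authors for every gene model in each library. Trimmomatic 0.36 and STAR 2.7.10a are named in the submitters' processing notes. Build, annotation and strand setting: not given in the sources used here. Overlapping models and near-identical paralogs may share or split reads. CPM used TMM-scaled totals over all 13785 models. For tests, filterByExpr left 11658 genes, with 99.99% or more of each library's counts. edgeR 4.0.16 (R 4.3.3) fitted 1 mean per group over the 8 libraries without a replicate block (4 residual degrees of freedom), and contrasts were tested by the quasi-likelihood F test with Benjamini-Hochberg adjustment over all tested genes. Genes were called at an adjusted p below 0.05. The SE is the size of the log2 fold change divided by the square root of F. DESeq2 1.42.0 was an alternative. The tests were tried on simulated counts drawn independently for each library, and the outcome is not used here. No replicates agreed within sampling noise (chi-square per degree of freedom 15.6 to 71.2, over models with at least 20 counts in the pair).

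The members and lists were chosen with earlier results of these data known. The genes named were the 2 with the widest margin, the 2 with the highest spruce mean, at most 2 called in each direction per contrast, the 2 nearest each side of the threshold, the longest run of neighbours, and the 2 highest and 2 lowest ratios of 25 to 15 °C.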

Additional observations from a re-analysis of the deposited data

How the results depend on the processing

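Members were recounted under each rule and otherwise kept as reported. The member count was 61 with a margin of 2 and 397 with a margin of 1.2, and 155 to 243 with 1 library left out. Members called for temperature on spruce (3) became 10 with DESeq2, 5 with RLE scaling, 0 in a fit of the 4 spruce libraries, and 0 to 17 with 1 library left out. On straw (21) they became 1 to 28 with 1 library left out. For the interaction (0) edgeR called 0 to 6 with 1 library left out, and DESeq2 11. With a library left out, its group has 1 library, assumed to vary like the others. Shares of all tested genes called are not given for these fits. The median on straw (-0.06) lay between -0.21 and 0.18 with 1 library left out and changed sign without either second straw library. A rule on the lowest spruce and the highest straw library is no stricter with a library left out, apart from rescaling. The member count can therefore rise by construction. The cause of the changes in calls and medians was not tested.

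The replicate numbers were not taken as pairing the libraries, because the correlation of replicate differences over all tested genes was not above 0.1 in every pair of groups. It was -0.32, -0.03 and -0.27 between straw at 15 °C and the other groups, and 0.16, 0.25 and 0.26 among those. With the replicate number as a block, 4 members were called on spruce, 17 on straw and 0 for the interaction (28 at an unadjusted p below 0.05). A crossed pairing, with the numbers of straw at 15 °C swapped after the data were seen, gave 15, 27 and 7. Shares of all tested genes called are not given for the block or the crossed fit, so these counts cannot be read as particular to members. Whether depth limited the number of calls was not tested.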
